A study of Mus musculus with 4 samples.

Results

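Wnt proteins are secreted lipid-modified ligands that bind Frizzled receptors at the cell surface. In the canonical branch, binding keeps beta-catenin from being degraded, so that it enters the nucleus and acts with TCF/LEF factors on target genes. Secreted Frizzled-related proteins (Sfrp) and Dickkopf proteins (Dkk) dampen or modify this signal outside the cell, and R-spondin receptors of the Lgr family raise it. In the pancreas the pathway is known for its part in organ growth and in exocrine development, and variants near TCF7L2 are among the best known human risk loci for type 2 diabetes.

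The values described here are those of 10 genes of this pathway: the ligands Wnt4, Wnt5a and Wnt5b, the secreted antagonists Sfrp1 and Sfrp5 with Dkk3 of the Dickkopf family, the receptor Lgr4, the effectors Ctnnb1 and Tcf7l2, and the target Axin2. They were taken as every probe with 1 of these symbols in the platform annotation, which gave 20 of the 46632 probes on the array, for 10 of 17711 named genes. The samples were isolated islets of C57BL/6 mice at 12 weeks of age, on 2 arrays of mice with a Pdx1-controlled knockout of Bmpr1a, which encodes a receptor for bone morphogenetic proteins (Bmp), and on 2 arrays of wild type mice. Pdx1 is expressed in the embryonic pancreas and later mainly in beta cells. Which islet cells carried the deletion was not measured here. The labels name no Cre transgene in the wild type mice and do not say whether a sample came from 1 mouse, a pool or a repeat extraction. The spread behind the p-values is therefore that between these 4 samples and may be technical, and the number of arrays limits the precision.

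The raw intensity of the leading Bmpr1a probe was 887 and 687 on the knockout arrays, against 793 and 851 on the wild type arrays. Whether this probe lies inside the deleted stretch cannot be read from the files, so the value is no check of the labels. All 14 islet endocrine markers on the array were above background, with a summed raw intensity of 220481 to 222366 in knockout islets and 196648 to 202817 in wild type islets. Acinar markers summed to 34821 to 38453 in knockout and 41235 to 56820 in wild type islets, over 8 tested genes of 10 on the array, with Ptf1a at background on all arrays. Lymphocyte markers summed to 1265 to 1468 in knockout and 9207 to 11304 in wild type islets, and 11 of 11 tested fell. Stromal markers, 10 tested of 14, summed to 3406 to 5390 in knockout and 4728 to 4763 in wild type islets, with Col1a1, Col1a2 and Des at background on all arrays. Schwann cell markers, 2 tested of 6, summed to 1954 to 2648 in knockout and 841 to 846 in wild type islets, where Ngfr rose and Sox10, S100b, Gfap and Cdh19 were at background on all arrays. Endothelial markers, 9 tested of 10, summed to 11194 to 13157 in knockout and 8088 to 8278 in wild type islets, and 1 of them, Flt1, rose. Duct markers, 4 tested of 8, summed to 6168 to 7333 in knockout and 5127 to 5558 in wild type islets. Macrophage markers, 6 tested of 8, summed to 2026 to 2119 in knockout and 2391 to 2677 in wild type islets. Past the test used below, 2 islet endocrine markers rose, and 2 acinar and 2 stromal markers fell. The duct and macrophage markers each had 1 that rose and 1 that fell. The part of these other cells in the results on Wnt genes was not tested, and in whole islets fewer cells of a type and less RNA per cell cannot be told apart.

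Of the 10 genes, 6 had a probe above background (detection p below 0.05 on both knockout arrays, both wild type arrays, or all 4) and were tested, through 8 probes. The brightest beta-catenin (Ctnnb1) probe and the 1 tested Tcf7l2 probe were higher in knockout islets, each by about 0.5 on the log2 scale. The antagonist transcript Sfrp5 was lower. Wnt4, Wnt5b and Dkk3 did not pass the test (limma, Benjamini-Hochberg adjusted p below 0.05 over 15639 probes). The dimmer tested Ctnnb1 probes had negative changes, and the mean of the tested Ctnnb1 probes changed by -0.09. Neither the Ctnnb1 nor the Tcf7l2 call held under every alternative setting given below. The other 4 genes, Wnt5a, Sfrp1, Lgr4 and Axin2, were not above background on any array. With 1 probe per gene, the one of highest mean, 2 members were higher and 1 lower of 6 tested. Across all 9352 tested genes, 14.5% were called higher and 11% lower, which makes 25.5% in either direction, and across probes the shares were 14.1%, 11.4% and 25.5%. With so few members, this count is a description. Sfrp5 and Wnt5b passed the detection filter through the genotype where they were high.

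Reference sequence before listed transcript starts is shown for the members that passed. Which start gave the transcripts read by the probes was not tested. RefSeq promoter windows (build GRCm38.p6, from 250 bases before to 50 bases after each start) were found for 7 of the 10 members, in 11 windows. The stretch of 250 bases before the single listed Sfrp5 start lies at chr19:42202253-42202502 on the minus strand, that before the first Ctnnb1 start at chr9:120933150-120933399 on the plus strand, and that before the downstream Tcf7l2 start at chr19:55895071-55895320 on the plus strand. The downstream Tcf7l2 window holds a motif. The upstream Tcf7l2 window (chr19:55741560-55741809, plus strand) held none and is not printed. A 27-base piece of the window of the second Ctnnb1 start (chr9:120933467-120933493, plus strand) is given because it holds a motif. Each runs 5′ to 3′, with a matched motif in capitals.
Sfrp5: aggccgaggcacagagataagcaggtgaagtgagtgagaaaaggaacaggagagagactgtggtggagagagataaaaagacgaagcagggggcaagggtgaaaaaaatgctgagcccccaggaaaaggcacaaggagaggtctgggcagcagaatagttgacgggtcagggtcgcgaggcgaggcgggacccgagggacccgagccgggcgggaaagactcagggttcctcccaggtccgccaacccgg
Ctnnb1, first start: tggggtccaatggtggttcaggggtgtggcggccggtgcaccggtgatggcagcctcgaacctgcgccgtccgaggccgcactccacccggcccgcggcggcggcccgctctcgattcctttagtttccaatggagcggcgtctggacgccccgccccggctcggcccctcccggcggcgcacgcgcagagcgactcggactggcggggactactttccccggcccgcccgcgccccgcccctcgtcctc
Ctnnb1, piece before the second start: ctccttgtgcGGCGCCAtcttaagccc
Tcf7l2, downstream start: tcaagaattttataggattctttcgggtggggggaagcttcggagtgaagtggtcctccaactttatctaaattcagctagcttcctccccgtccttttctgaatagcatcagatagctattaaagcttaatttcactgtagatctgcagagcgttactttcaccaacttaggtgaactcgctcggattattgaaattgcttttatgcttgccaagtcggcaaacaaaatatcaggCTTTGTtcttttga

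The motifs searched on both strands were CTTTGA and CTTTGT, the core letters bound by TCF/LEF factors, and TGGCGCC, a Bmp response element known from the Id1 promoter. The TCF/LEF core stood 14 bases before the downstream Tcf7l2 start and 71 bases before the third Wnt5b start, so 2 of 7 members with a window held it, against 34.5% of all 27025 genes in the table. The Bmp element lay on the opposite strand 101 bases before the second Ctnnb1 start, and 4.66% of all genes held it. The motifs did not overlap in any of these windows. No match of either kind was found in the Sfrp5 window, or in that of Axin2, Wnt4 or Lgr4. The first Ctnnb1 window had 74.8% G and C, the upstream Tcf7l2 window 72.8%, the downstream Tcf7l2 window 40.8% and the Sfrp5 window 59.6%, with a median of 52.4% over all windows. These letter matches are descriptions of the reference sequence, and binding was not measured.

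**Figure D1:**
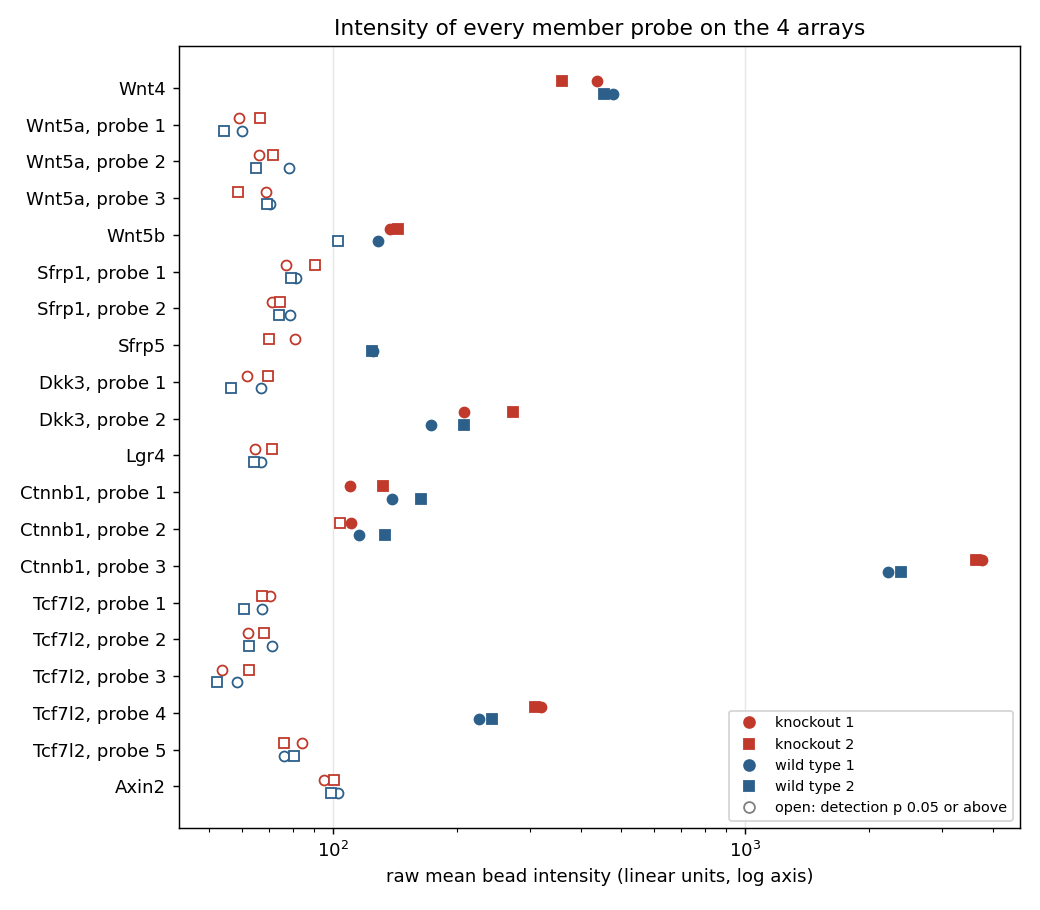
Raw mean bead intensity (linear units on a log axis) of each of the 20 probes on the knockout arrays (upper row of each pair) and wild type arrays (lower row). Open symbols mark a detection p of 0.05 or above. The brightest Ctnnb1 probe lies at 3630 to 3762 in knockout and 2217 to 2389 in wild type islets, and 12 probes are open on all 4 arrays.

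Among the ligands, Wnt4 was detected on every array. Wnt4 is a ligand that can act outside the beta-catenin branch and is known as an islet transcript. Its raw intensity was 437 and 359 on the knockout arrays, against 476 and 455 on the wild type arrays, with detection p of 0 on each. On the normalised log2 scale it was 8.45 and 8.21 in knockout and 8.84 and 8.66 in wild type islets. Both knockout arrays were below both wild type arrays, but an exact permutation test of 2 against 2 cannot go below 0.333. The change was -0.42 ± 0.15 (SE, 95% interval -0.78 to -0.06) and did not pass (adjusted p = 0.0842). Median scaling gave -0.18 with an adjusted p of 0.495, and over 13 alternatives the adjusted p ran from 0.0574 to 0.495.

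Wnt5b, a close relative of Wnt5a, had raw intensities of 137 and 143 in knockout islets, against 128 and 103 in wild type islets. It was detected on both knockout arrays and on 1 of the 2 wild type arrays, where the other had a detection p of 0.0655. Normalised values were 6.33 and 6.45 in knockout and 6.09 and 5.60 in wild type islets. The wild type arrays were further apart than the knockout arrays. The change of 0.54 ± 0.19 (SE, 95% interval 0.09 to 1.00) missed the threshold (adjusted p = 0.0801). Median scaling gave 0.58 with an adjusted p of 0.0441, and over 12 alternatives the adjusted p ran from 0.0441 to 0.347.

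Wnt5a, the best known non-canonical ligand, was at background through all 3 of its probes. Detection p ranged from 0.284 to 0.854 on the 4 arrays. Whether its level differed was not detectable here, since a probe at background bounds the level from above only.

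The antagonist Sfrp5 binds Wnt ligands outside the cell. Its raw intensity was 80.7 and 69.9 in knockout islets, against 124.8 and 124.4 in wild type islets, with bead standard errors of 4.35 to 11.8. It was above background on both wild type arrays (detection p 0.0268 and 0.0218) and on neither knockout array (0.188 and 0.441). Normalised values were 5.14 and 4.94 in knockout and 6.02 and 6.05 in wild type islets, so the genotypes lay apart by more than the spread within each. Because the knockout value is a background value, the size is given as a bound: in knockout islets Sfrp5 was lower by at least 1.36-fold. The limma test (adjusted p = 0.00413) was of the measured difference, and the bound itself was not tested. For this bound each knockout array took the lowest signal of any detected probe on it, unless the Sfrp5 signal was higher, and the wild type mean was set against their mean. The measured means were 5.04 ± 0.14 in knockout and 6.03 ± 0.02 in wild type islets (SD, n = 2), a change of -0.99 ± 0.13 (SE). The Sfrp5 call held in 12 of 12 alternatives that tested it, including each array left out, with adjusted p of 0.00256 to 0.0394. It was dim on every array, and a detection p threshold of 0.01 removed it from the test.

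The other secreted members gave no call. Dkk3, a Dickkopf relative whose role in Wnt signalling is less clear than that of Dkk1, had raw intensities of 208 and 273 in knockout islets, against 173 and 208 in wild type islets. Its normalised values of 7.20 and 7.74 in knockout and 6.87 and 7.23 in wild type islets overlapped. The change was 0.42 ± 0.22 (SE, 95% interval -0.11 to 0.95, adjusted p = 0.203), and it was 0.69 without knockout 1 (adjusted p = 0.0583) and 0.15 without knockout 2 (adjusted p = 0.598). A second Dkk3 probe was at background on all arrays. Both probes of Sfrp1, which like Sfrp5 carries a Frizzled-type cysteine-rich domain, were at background, with raw intensities of 70.9 to 90.6.

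**Figure D2:**
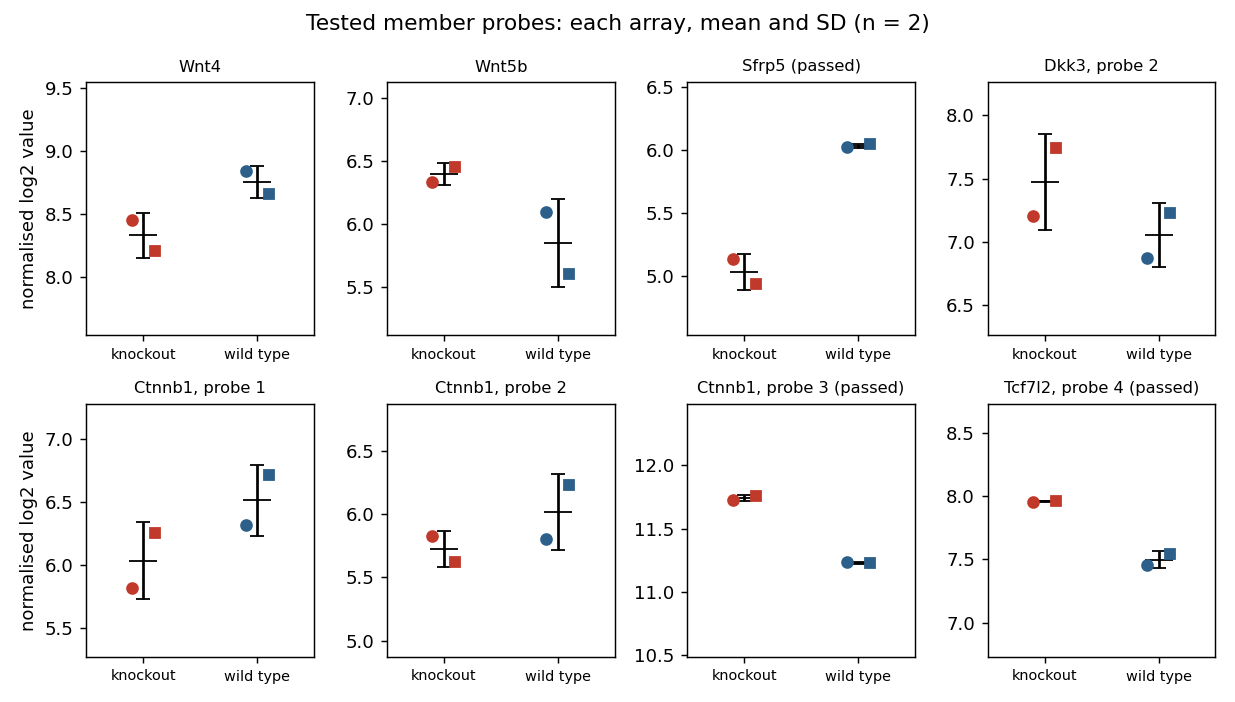
Normalised log2 value of the 8 tested probes in knockout (left) and wild type (right) islets. Points are arrays (circle, replicate 1, and square, replicate 2), the bar is the mean and the whisker the SD (n = 2), and every panel spans 2 log2 units. The Sfrp5, brightest Ctnnb1 and Tcf7l2 panels show genotypes that lie apart by more than their spread, and Dkk3 overlaps.

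Beta-catenin, encoded by Ctnnb1, links cadherins to the cytoskeleton and is the signalling effector of the canonical branch. Its brightest probe had raw intensities of 3762 and 3630 in knockout islets, against 2217 and 2389 in wild type islets, with bead standard errors of 71.8 to 151. Normalised values were 11.72 and 11.76 in knockout and 11.23 and 11.22 in wild type islets, so arrays of a genotype were close together and the genotypes apart. Ctnnb1 thus rose by 0.51 ± 0.12 (SE, 1.42-fold, adjusted p = 0.0270). The call was lost without any 1 of the 4 arrays, at adjusted p of 0.0526 to 0.144, while the change stayed between 0.49 and 0.53.

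The dimmer Ctnnb1 probes did not show this rise. One, annotated to a cDNA clone entry, had raw intensities of 110 and 132 in knockout islets, against 139 and 164 in wild type islets, a change of -0.48 ± 0.21 (SE, adjusted p = 0.137). The other, annotated to the same curated transcript as the bright probe, had 111 and 104 in knockout islets, against 115 and 133 in wild type islets, a change of -0.29 ± 0.18 (SE, adjusted p = 0.270). Both signs were negative, neither passed, and both lay near background. The difference between probes was not tested. When the tested probes of a gene were averaged, Ctnnb1 changed by -0.09 (adjusted p = 0.669), so its call rests on the brightest probe.

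Tcf7l2 encodes the TCF family factor through which beta-catenin acts in many endodermal tissues. Of its 5 probes 1 was above background. It had raw intensities of 320 and 309 in knockout islets, against 226 and 243 in wild type islets. Normalised values were 7.95 and 7.96 in knockout and 7.45 and 7.54 in wild type islets. Tcf7l2 rose by 0.46 ± 0.12 (SE, 1.38-fold, adjusted p = 0.0395). The adjusted p lay between 0.0208 and 0.202 over 13 alternatives, past the threshold in 6. Calls were lost without any 1 array (0.0737 to 0.202), with cyclic loess (0.0621), with the replicate number as a block (0.0574) and with an intensity trend (0.0518). The remaining 4 Tcf7l2 probes were at background on all arrays, 3 of them annotated to cDNA entries, so transcript variants could not be compared.

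Axin2, a scaffold that promotes beta-catenin degradation and is itself a widely used canonical target, had raw intensities of 95.2 and 100.4 in knockout islets, against 102.6 and 98.8 in wild type islets. Detection p was 0.0618 and 0.0643 in knockout and 0.0836 and 0.0755 in wild type islets, just outside the threshold. Its normalised values overlapped, at 5.47 and 5.55 in knockout and 5.52 in each wild type array. In the fit with no detection filter the change was -0.01 ± 0.07 (SE, adjusted p = 0.973). Lgr4, which binds R-spondins, was at background, with 64.7 and 71.1 in knockout and 66.9 and 64.4 in wild type islets. A gene at background could differ without being seen.

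**Figure D3:**
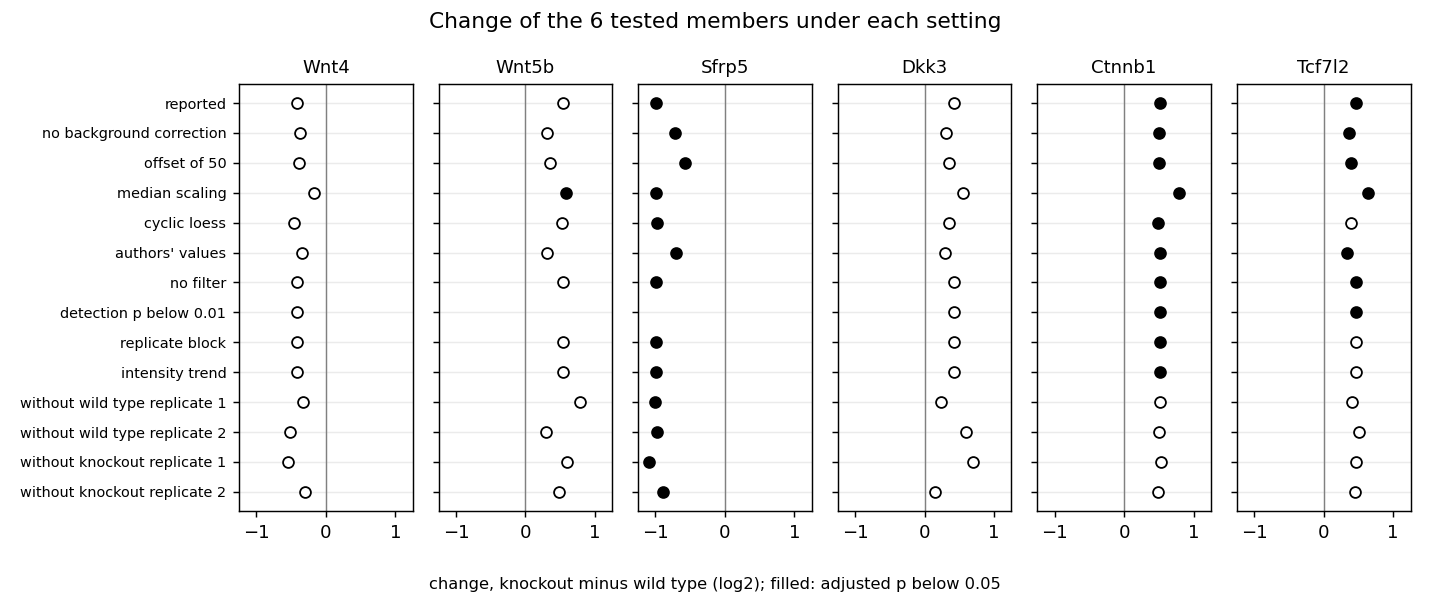
Change (knockout minus wild type, log2) of the 6 tested members as reported and under 13 alternatives. Filled points have an adjusted p below 0.05. Sfrp5 is filled wherever it was tested, Ctnnb1 and Tcf7l2 are open without any 1 array, and no point lies on the other side of 0 from its reported value.

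Quantile normalisation gave the same value distribution to every array. With median scaling in its place, the median change of all tested probes was 0.21 rather than 0.05, and 71.7% rather than 55.2% of called probes were higher. Relative to these medians, Ctnnb1 was 0.58 above the median with median scaling and 0.46 above it as reported, and Tcf7l2 was 0.42 and 0.41 above.

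The rest of the pathway was described through 7 lists of other Wnt genes. Of 109 genes, 100 were on the array and 52 were tested, of which 6 rose and 9 fell. The median change was 0.11 over these 52 genes, against 0.06 over all tested genes. The shares to set beside each list are those over all tested genes, 14.5% higher and 11% lower. The largest of these differences were in Sostdc1, Fzd6, Cd44 and Celsr1.

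Among receptors and co-receptors, 3 of 9 tested rose and 1 fell, with a median of 0.39. The Frizzled receptor gene Fzd6 was detected on both knockout arrays (209 and 254 raw intensity) and on neither wild type array (71.3 and 89.7). It was at least 3.29-fold higher in knockout islets (adjusted p = 0.000860 for the measured difference). Ror2, which encodes a receptor for Wnt5a, had 515 and 597 in knockout islets, against 335 and 375 in wild type islets, and rose by 0.60 ± 0.15 (SE, adjusted p = 0.0360). Fzd10 was above background in knockout islets only and was at least 1.26-fold higher there. Its measured difference had an adjusted p of 0.0484, a call that held in 2 of 12 alternatives. Ror1, the relative of Ror2, was above background in wild type islets only. In knockout islets it was lower by at least 1.30-fold (adjusted p = 0.0123 for the measured difference). The calls of Ror1 and Ror2 were lost without wild type 1 or wild type 2, and that of Ror2 also without knockout 2 and with no detection filter (adjusted p of 0.0776 to 0.179).

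Secreted modulators other than the members had 1 call in 5 tested genes. Sostdc1, which encodes a secreted antagonist of both Bmp and Wnt signalling, had raw intensities of 89.2 and 113.8 in knockout islets, against 744 and 833 in wild type islets. It was detected on 1 of the 2 knockout arrays, and its change of -4.01 ± 0.20 (SE, adjusted p = 0.000131) held in 13 of 13 alternatives. Frzb, a further Sfrp-type antagonist, had a change of 0.40 ± 0.17 (SE, adjusted p = 0.138), and passed with median scaling (0.70, adjusted p = 0.0314) and without knockout 2 (0.62, adjusted p = 0.0324), while it was 0.18 without knockout 1 (adjusted p = 0.400). Of other ligands and the genes that release them 0 of 3 tested passed in limma, and 1, Wls, was higher at an unadjusted p below 0.05. Wls encodes the carrier that moves Wnt proteins to the cell surface. Its brightest probe had 1495 and 959 in knockout islets, against 699 and 723 in wild type islets. Its change was 0.61 ± 0.20 (SE, adjusted p = 0.0742), past the threshold in 6 of 13 alternatives, and it was 0.32 without knockout 1 (adjusted p = 0.169) and 0.89 without knockout 2 (adjusted p = 0.0112). A second tested Wls probe, near background, had the other sign, with a change of -0.28 ± 0.21 (SE, adjusted p = 0.359). Wnt3 changed by -0.21 ± 0.14 (SE, adjusted p = 0.312). A further 14 genes of this list were on the array and not tested, 11 of them at background on all arrays.

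Of the R-spondin module 2 genes of 6 on the array were tested. Rnf43, a ubiquitin ligase that removes Frizzled receptors, was above background in wild type islets only. In knockout islets it was lower by at least 1.23-fold (adjusted p = 0.0153 for the measured difference). That call was lost without wild type 1 or 2. Rspo2, which encodes an R-spondin ligand, was above background in knockout islets only. There it was higher by at least 1.11-fold, and the measured difference did not pass (adjusted p = 0.129).

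The list of cytoplasmic transduction genes, which also holds genes of planar polarity membrane proteins, had the most tested genes and few calls. Of 18 tested, 1 was higher and 1 lower, with a median of 0.10. Celsr1, a planar polarity cadherin gene, had 264 and 221 in knockout islets, against 127 and 141 in wild type islets, and rose by 1.27 ± 0.17 (SE, adjusted p = 0.00387). Prickle2, which encodes a cytoplasmic planar polarity protein, was above background in wild type islets only. In knockout islets it was lower by at least 1.37-fold (adjusted p = 0.0227 for the measured difference). That call was lost when either wild type array or knockout 1 was left out. The measured change of Prickle2 was -0.63 to -0.50 without 1 array. In the nuclear list 2 of 10 rose and 2 fell. The Groucho-type corepressor genes Tle1 and Tle2 rose by 0.68 ± 0.12 (adjusted p = 0.0118) and 0.61 ± 0.12 (adjusted p = 0.0163). Ctnnbip1, whose product keeps beta-catenin from TCF factors, fell by 0.64 ± 0.12 (SE, adjusted p = 0.0152), and the deacetylase gene Hdac1 fell by 0.55 ± 0.15 (SE, adjusted p = 0.0403). All 4 calls were lost without wild type 1 or wild type 2 (adjusted p of 0.0725 to 0.195), that of Hdac1 also without knockout 1 (0.108), that of Hdac1 with no detection filter (0.0824), and those of Ctnnbip1 and Hdac1 with median scaling (0.125 and 0.217).

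Of the beta-catenin targets, 4 of 7 tested fell and 0 rose in limma, with a median of -0.69. Over all tested genes 11% were called lower and 14.5% higher. Among the 4, Rnf43 was at background on both knockout arrays. With 7 tested genes, this count is a description. Cd44, a hyaluronan receptor gene that leukocytes also express, had 267 and 299 in knockout islets, against 665 and 584 in wild type islets, and fell by 1.46 ± 0.16 (SE, adjusted p = 0.00218). On the same arrays the summed lymphocyte markers were at 1265 to 1468 in knockout and 9207 to 11304 in wild type islets, and their part in the fall was not tested. Dact1, which encodes a Dishevelled-binding protein, fell by 0.90 ± 0.12 (SE, adjusted p = 0.00470). Rnf43, also counted in the R-spondin module, was the third, and the cyclin gene Ccnd1 fell by 0.69 ± 0.16 (SE, adjusted p = 0.0235), a call lost when either wild type array or knockout 1 was left out, with median scaling and with no detection filter (adjusted p of 0.0617 to 0.140). At an unadjusted p below 0.05, 4 fell and 0 rose. A further 9 targets on the array were not tested, and of these Lef1, Myc, Sp5, Lgr5, Ascl2, Bambi, Mmp7 and Notum were at background on all 4 arrays.

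**Figure D4:**
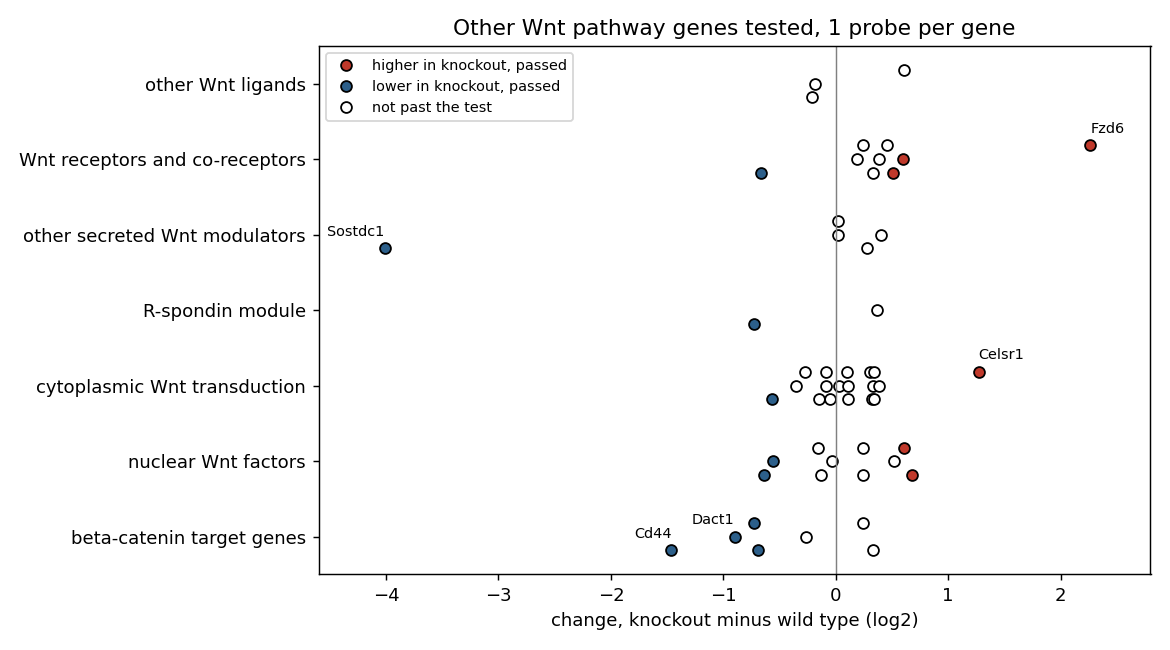
Change (knockout minus wild type, log2) of the tested genes of 7 lists of other Wnt genes, 1 probe per gene. Red points passed as higher, blue points as lower, and open points did not pass. Sostdc1 lies at -4.01 and Fzd6 at 2.26, and values for genes at background in a genotype are measured differences, not bounds.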

How the data were processed

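The authors deposited a scanner table with, per the file headers, the linear intensity averaged over beads, its standard error, the count of beads and a detection p-value for each of 46632 probes and 4 arrays. They also deposited processed log2 values of 46614 of these probes, and the sources used here do not give their method. The wild type 1 column equals log2 of the raw intensity to within 5e-09.

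Background was corrected with normexp through the detection p-values (offset 16), followed by log2 and quantile normalisation, in limma 3.58.1 and R 4.3.3. The offset shrinks changes of dim probes. Knockout was compared with wild type by lmFit and eBayes over 15639 probes (6.24 total degrees of freedom). No block was used, because the labels name no batch and a shared replicate number does not by itself pair the samples. The deviations of same-numbered arrays had a correlation of 0.02. An exact permutation test of 2 against 2 cannot go below 0.333. Replicates differed by more than 1.96 bead standard errors in 35.9% of tested probes for the knockout pair and 26.8% for the wild type pair. Symbols came from the platform annotation (29965 probes with 1, 10 with several, 16657 not listed). The fit was also run on simulated data with known changes, and its recovery and false calls are not given here.

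Named are all member probes, up to 4 called genes of each Wnt list by size (the 2 largest where fewer than 2 passed). The rule also asked for the genes most like the member with the largest called change, which was Sfrp5 by its measured values. These are not given, because its knockout values are background. Members and lists were chosen with earlier results of these data known. Median scaling, cyclic loess, other background settings, filters and left-out arrays were tried as alternatives.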

Additional observations from a re-analysis of the deposited data

How the results depend on the processing

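No member and no other named gene took the other sign under the 13 alternatives that kept its probe, and averaging the tested probes of a gene put Ctnnb1 at -0.09. Without 1 array, the change lay between 0.49 and 0.53 for Ctnnb1 and between 0.41 and 0.51 for Tcf7l2, with no call for either, so the count of members called higher was 0 in each case, and Sfrp5 stayed the 1 called lower. Tcf7l2 also lost its call with cyclic loess (0.40), and with the replicate block or an intensity trend (0.46 each), which left 1 member called higher, as did averaging the probes of a gene, where Ctnnb1 was lost. The replicate block changed no other call of a member. Wnt5b passed with median scaling (0.58). A detection p threshold of 0.01 left 0 members called lower, since Sfrp5 was no longer tested. Over all probes, 2203 were called higher and 1785 lower. Median scaling gave 3517 higher, and leaving out 1 array gave 677 to 2041 higher and 787 to 1790 lower. Of the other Wnt genes, 6 were called higher and 9 lower, against 12 higher with median scaling, and 2 to 7 higher and 3 to 10 lower without 1 array. An array left out leaves 1 sample in a genotype, which is then assumed to vary like the other genotype. Causes were not tested beyond what the settings themselves change. Most member probes lay near background, which limits what the absence of a call shows.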

Other observations

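Several pathway genes were read by more than 1 tested probe. Ccnd1, a G1 cyclin gene, had 5 tested probes, of which 4 fell past the test, with changes of -1.38 to -0.50 on the log2 scale. Of 3 tested Cd44 probes 2 fell, with a range of -1.54 to 0.01, and 7 more Cd44 probes were at background. Of 3 tested Tle1 probes 2 rose, with a range of 0.39 to 0.98, and both Tle2 probes rose. The 3 probes of Gsk3b, the kinase that marks beta-catenin for degradation, had changes of 0.33 to 0.34, and 0 passed in limma, with 0 at an unadjusted p below 0.05. Daam1, a formin gene of the planar polarity branch, had 3 tested probes at -0.47 to 0.60, of which 0 passed in limma and 2 had an unadjusted p below 0.05.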
